A study of Mus musculus with 12 samples.

Results

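The genes described here are 4 Id genes (Id1, Id2, Id3 and Id4) and 6 genes of the bone morphogenetic protein (BMP) pathway: the ligands Bmp4 and Bmp7, the inhibitory Smads Smad6 and Smad7, and the homeobox genes Msx1 and Msx2. They were taken from a fixed list of 10 symbols, 1 probe set per gene, out of 19938 genes with a probe set that carries 1 symbol. All 10 lay above the filter on dim genes and were among the 14953 genes tested. The cells were neurons made from D3, a line of mouse embryonic stem cells, and taken at day 16 of differentiation through embryoid bodies, aggregates that form in suspension once the self-renewal factor LIF is withdrawn. The groups were a D3 line with knockdown of PRMT1 (siPRMT1), a D3 line with knockdown of PRMT8 (siPRMT8), a D3 line given a scrambled sequence (siSCR) and unmodified D3 cells (D3), with 3 arrays each. PRMT1 and PRMT8 are arginine methyltransferases, PRMT1 being present in most tissues and PRMT8 mainly in neurons. Each group was 1 line, so what a line acquired while it was made and what its knockdown did cannot be told apart. The labels used here do not say whether replicates were separate differentiations, and the p-values therefore measure the spread between these cultures, which may be technical.

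BMP ligands bind pairs of type I and type II receptor kinases, which phosphorylate Smad1, Smad5 and Smad9. These join Smad4, enter the nucleus and switch on target genes, among which Id1, Id2, Id3, Smad6, Smad7, Msx1 and Msx2 are widely used readouts. Id proteins are helix-loop-helix proteins without a DNA-binding region that hold E proteins away from the proneural factors that need them, and Smad6 and Smad7 act back on the receptors as inhibitors. In the embryo, BMP ligands from the roof plate pattern the dorsal neural tube, and in neural progenitors BMP signalling can hold back neuronal differentiation and favour astrocytes. PRMT1 has been reported, in other cells, to methylate Smad6 at activated BMP receptors.

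Values are log2 intensities, 1 per probe set and array, and a difference of 1 is a 2-fold difference. Levels of different probe sets cannot be set against each other, and no detection call was used. Prmt1 read 7.72, 7.95 and 7.59 in siPRMT1, 9.27, 9.20 and 9.27 in siPRMT8, 8.84, 8.74 and 8.86 in siSCR and 8.69, 8.86 and 8.71 in D3, so it was lowest in the line named for it. The siPRMT1 difference from siSCR was -1.06 (adjusted p = 0.000115, limma). In siPRMT8, Prmt1 was higher than in siSCR by 0.43 (adjusted p = 0.00625) and than in D3 by 0.49 (adjusted p = 0.00232, limma). The siPRMT8 line thus differed from both controls in Prmt1 as well as Prmt8. Prmt8 read 6.35, 6.89 and 6.67 in siPRMT1, 6.44, 6.17 and 6.44 in siPRMT8, 6.60, 7.18 and 7.10 in siSCR and 7.37, 7.41 and 7.40 in D3. It was lower in siPRMT8 than in siSCR by a log2 difference of -0.61 (adjusted p = 0.0171, limma), and the difference of siPRMT1 from siSCR was -0.32 (adjusted p = 0.177, limma). Relative to D3, Prmt8 was lower in both lines, by a difference of -0.75 in siPRMT1 (adjusted p = 0.00488) and -1.04 in siPRMT8 (adjusted p = 0.000993), and siPRMT1 differed from siPRMT8 by 0.29 (adjusted p = 0.489), so its lower level was not shown to be particular to siPRMT8. The mean of 14 neuron markers was 8.20 to 8.47 in siPRMT1, 8.38 to 8.59 in siPRMT8, 8.45, 9.54 and 9.48 in siSCR and 9.48 to 9.62 in D3. All 14 lay above the filter on dim genes, and so did all 7 pluripotency markers, which include Pou5f1 and Nanog. In all, 2 arrays stood apart from their groups in marker means. These were siSCR replicate 1, with the low neuron markers, and siPRMT1 replicate 2. The latter had a pluripotency mean of 9.74, against 10.85 and 10.61 in replicates 1 and 3. In Id2 and Id3, siPRMT1 replicate 3 lay between replicates 1 and 2, so replicate 2 did not stand apart alone there. Calls lost or gained without these 2 arrays are given beside the genes named. They show how far a call rests on an array and are not corrected results. Counts over all tested genes also moved in such fits. A list count with arrays left out thus cannot be set against a share of all tested genes with all arrays.

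In siPRMT8 neurons Id2 and Id3 rose and Id4 and Bmp7 fell relative to siSCR, 4 of the 10 genes at an adjusted p under 0.05, against 23.8% of all tested genes in that comparison. In siPRMT1 neurons Id4 and Bmp7 fell and Msx2 rose relative to siSCR, 3 of 10, against 18.7% of all tested genes. The arrays of siPRMT8 and siSCR did not overlap in 6 of the 10 genes, beside 41.8% of all tested genes, and those of siPRMT1 and siSCR in 3, beside 30%. Of all tested genes, 10.7% were higher and 13.2% lower in siPRMT8, and 7.18% were higher and 11.6% lower in siPRMT1. Relative to D3, Id4 alone of the 10 passed in siPRMT1 (background 26.4%), and Id4 and Bmp7 passed in siPRMT8 (background 27.7%). Lower calls relative to D3 made up 14.7% of all tested genes in siPRMT1 and 15.2% in siPRMT8, and higher calls 11.7% and 12.5%. Arrays did not overlap with D3 in 3 of the 10 genes in siPRMT1, beside 44.2% of all tested genes, and in 5 in siPRMT8, beside 52.6%. Relative to D3 the shares of the 10 genes lay below the background, and relative to siSCR the shares that passed lay above it in both lines, by fewer than 2 genes. The counts relative to D3 rested on siPRMT1 arrays, which enter the shared estimate of the spread: without siPRMT1 replicate 2, 6 of the 10 passed in siPRMT8 (Id1, Id2, Id3, Id4, Bmp4 and Bmp7) and 3 in siPRMT1 (Id1, Id2 and Id4). Without siPRMT1 replicate 1 these counts were 5 in siPRMT8 and 3 in siPRMT1. The counts over all 14953 tested genes relative to D3 also moved when 1 array was left out. They ran from 2736 to 5327 in siPRMT8 and from 2643 to 4639 in siPRMT1. The counts with an array left out thus cannot be set against the 27.7% and 26.4% above. The median difference of the 10 genes was 0.068 in siPRMT1 and 0.065 in siPRMT8 relative to siSCR, beside 0.036 and 0.012 over all tested genes. Both knockdown lines were compared with the same siSCR and D3 arrays, so their differences are not independent of each other.

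**Figure D1:**
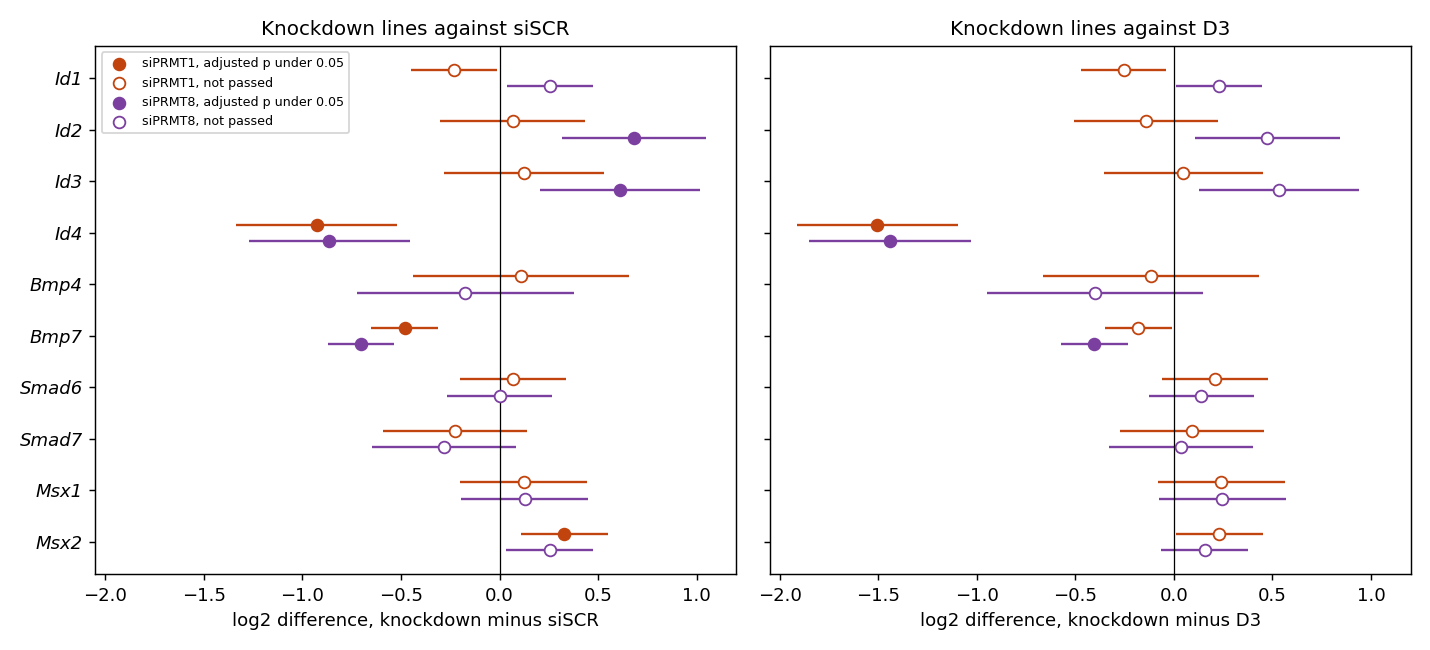
Difference in log2 intensity of each of the 10 genes between a knockdown line and siSCR (left) or D3 (right), with 95% confidence intervals as lines and filled points for an adjusted p under 0.05 (limma, n = 3 arrays per group). Id4 lies well left of 0 in both lines and both panels, Bmp7 lies left of 0 throughout, and Id2 and Id3 lie right of 0 in siPRMT8 and around 0 in siPRMT1.

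The promoter sequences of Id2, Id3 and Id4 are shown because these 3 Id genes were the ones that passed a test with all arrays, 2 in one direction and 1 in the other. RefSeq promoter windows of assembly GRCm38.p6 were examined for 7 of the 10 genes (Id2, Id3, Id4, Bmp4, Smad6, Msx1 and Msx2). The promoters of Id1, Bmp7 and Smad7 were not examined, so the motif results do not cover them. Each printed run is the 250 bases before the gene's start, read 5′ to 3′ on the gene's strand, at chr12:25096093-25096342 on the minus strand for Id2, chr4:136143572-136143821 on the plus strand for Id3 and chr13:48260866-48261115 on the plus strand for Id4. Capitals mark matches to GGCGCC, a GC-rich element bound by Smad1 and Smad5, or to CAGAC or its reverse complement GTCTG, the short Smad-binding element.
Id2: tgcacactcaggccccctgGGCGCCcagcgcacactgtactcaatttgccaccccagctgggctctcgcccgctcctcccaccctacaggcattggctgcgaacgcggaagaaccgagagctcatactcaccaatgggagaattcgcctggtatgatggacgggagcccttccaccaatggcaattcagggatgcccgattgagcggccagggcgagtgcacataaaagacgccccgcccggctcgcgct
Id3: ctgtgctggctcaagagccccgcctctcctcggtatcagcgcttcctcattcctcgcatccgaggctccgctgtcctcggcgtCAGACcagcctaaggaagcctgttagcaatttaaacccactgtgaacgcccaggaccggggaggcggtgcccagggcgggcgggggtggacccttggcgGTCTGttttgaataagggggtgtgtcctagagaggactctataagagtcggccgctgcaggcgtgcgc
Id4: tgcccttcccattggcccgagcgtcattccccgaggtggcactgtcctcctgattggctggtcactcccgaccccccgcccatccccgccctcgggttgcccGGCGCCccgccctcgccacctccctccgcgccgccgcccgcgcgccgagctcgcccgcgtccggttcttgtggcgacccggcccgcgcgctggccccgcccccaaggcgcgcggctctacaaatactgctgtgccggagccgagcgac
On both strands of the whole windows, which run 250 bases before to 50 bases after the start, the Id2 promoter held GGCGCC at positions -231 to -226 from the start and the Id4 promoter held it at -148 to -143. This motif was present in 11.87% of 32851 promoter windows of the same length. The Id3 promoter held CAGAC at -167 to -163 and, on the other strand, at -68 to -64, a motif present in 49.59% of windows. The palindrome GTCTAGAC, which does not contain CAGAC, was present in 0.21% of windows and among the 7 genes was found in Smad6 alone, across the start at -4 to 4. The windows of Bmp4, Msx1 and Msx2 held none of the 3 motifs. GGCGCC was thus shared by Id2 and Id4, whose levels moved in opposite directions in siPRMT8, and a match of letters is a description of the window and not of binding.

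Id2, which pairs with E proteins and is a BMP target in many cell types, was higher in siPRMT8 than in siSCR. Its level was 9.73, 10.64 and 10.17 in siPRMT1, 10.87, 10.72 and 10.80 in siPRMT8, 10.12, 10.10 and 10.12 in siSCR and 10.27, 10.44 and 10.25 in D3. The siPRMT8 arrays lay above all arrays of the other groups, whereas the siPRMT1 arrays reached from below every siSCR and D3 array to above them. Id2 was higher in siPRMT8 than in siSCR by 0.68 (SE 0.168, 1.60-fold, adjusted p = 0.0140, limma). Relative to D3 it differed by 0.47 in siPRMT8 (adjusted p = 0.0552), just outside the threshold, with no overlap between the arrays. It passed without siPRMT1 replicate 2, which enters the shared estimate of the spread (adjusted p = 0.00436). In siPRMT1 it differed from siSCR by 0.07 (95% interval -0.30 to 0.43, adjusted p = 0.808).

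Id3, a close relative of Id2 that also binds E proteins, had the same order of arrays within siPRMT1. It read 6.66, 7.67 and 7.23 in siPRMT1, 7.66, 7.58 and 7.78 in siPRMT8, 6.97, 7.11 and 7.10 in siSCR and 7.13, 7.22 and 7.07 in D3. All siPRMT8 arrays lay above all siSCR and D3 arrays, and siPRMT1 replicate 2 lay among them. Id3 was higher in siPRMT8 than in siSCR by 0.61 (SE 0.185, 1.53-fold, adjusted p = 0.0336, limma) and differed from D3 by 0.53 (adjusted p = 0.0505). The call relative to siSCR was lost without any 1 of the siPRMT8 or siSCR arrays, where the difference was 0.56 to 0.66 with an adjusted p of 0.0549 to 0.114. It was kept without any 1 of the siPRMT1 or D3 arrays, which enter this comparison only through the shared estimate of the spread. The siPRMT8 difference without siPRMT1 replicate 2 had an adjusted p of 0.00375 relative to siSCR and, relative to D3, 0.00578, and with siSCR replicate 1 also left out the difference from siSCR was 0.57 (adjusted p = 0.00484). In siPRMT1 the difference from siSCR was 0.12 with all arrays, 0.39 without siPRMT1 replicate 1 (adjusted p = 0.0465) and -0.12 without siPRMT1 replicate 2 (adjusted p = 0.564), so its sign depended on which array was kept.

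Id1, the BMP target most often used to read out the pathway, passed no test with all arrays, and its differences in the knockdown lines had opposite signs. It read 7.64, 8.07 and 7.92 in siPRMT1, 8.26, 8.46 and 8.37 in siPRMT8, 8.05, 8.14 and 8.14 in siSCR and 8.23, 8.10 and 8.07 in D3. The siPRMT8 arrays lay above every siSCR and D3 array, and the siPRMT1 arrays reached lower than those of any other group, with replicate 2 among the siSCR and D3 arrays. The difference from siSCR was -0.23 in siPRMT1 (adjusted p = 0.130) and 0.26 in siPRMT8 (adjusted p = 0.0834, limma). Without siPRMT1 replicate 2 the siPRMT1 difference was -0.33 (adjusted p = 0.0277). Without that array the siPRMT8 difference of 0.26 also passed (adjusted p = 0.0344), and it did without siPRMT1 replicate 1 (adjusted p = 0.0283). Relative to D3, without siPRMT1 replicate 2, the siPRMT1 difference was -0.35 (adjusted p = 0.0144) and the siPRMT8 difference 0.23 (adjusted p = 0.0483).

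Id4, which in the developing brain is found in neural progenitors and in cells of the astrocyte line, behaved unlike the other 3 Id genes and was lower in both knockdown lines. It read 8.26, 7.93 and 8.35 in siPRMT1, 8.05, 8.41 and 8.27 in siPRMT8, 8.60, 9.40 and 9.33 in siSCR and 9.59, 9.77 and 9.70 in D3. No array of a knockdown line reached the lowest siSCR array, and no siSCR array reached the lowest D3 array. Relative to siSCR it fell by 0.93 on the log2 scale in siPRMT1 (SE 0.187, 1.90-fold, adjusted p = 0.00682) and, in siPRMT8, by 0.86 (SE 0.187, 1.82-fold, adjusted p = 0.00783, limma). Relative to D3 it fell by 1.5 in siPRMT1 (2.84-fold, adjusted p = 0.000429) and, in siPRMT8, by 1.44 (2.71-fold, adjusted p = 0.000623). Without siSCR replicate 1 the differences from siSCR were -1.18 in siPRMT1 and -1.12 in siPRMT8. In a fit of the siPRMT1 and siSCR arrays alone, the siPRMT1 difference of -0.93 did not pass (adjusted p = 0.0687).

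Markers of neurons and astrocytes were low in the same arrays as Id4. Of the 14 neuron markers, 0 were higher and 10 lower in siPRMT1 than in siSCR, and 1 (Nefm) was higher and 8 lower in siPRMT8. Without siSCR replicate 1, 13 were lower in each line. Of the 8 astrocyte markers tested out of 9, 1 was higher and 7 lower in siPRMT1, and 1 was higher (Gja1 in both lines) and 6 lower in siPRMT8. The mean of all 9 astrocyte markers was 7.13 to 7.36 in siPRMT1, 7.19 to 7.49 in siPRMT8, 7.85 to 8.20 in siSCR and 7.98 to 7.99 in D3. In siSCR replicate 1, where Id4 read 8.60, the neuron mean of 8.45 lay within the range of the knockdown lines, and the astrocyte mean of 7.85 lay between them and the other siSCR arrays. In these bulk samples fewer cells of a type and less RNA per cell cannot be told apart, and the part of cell composition in the Id4 difference was not tested.

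**Figure D2:**
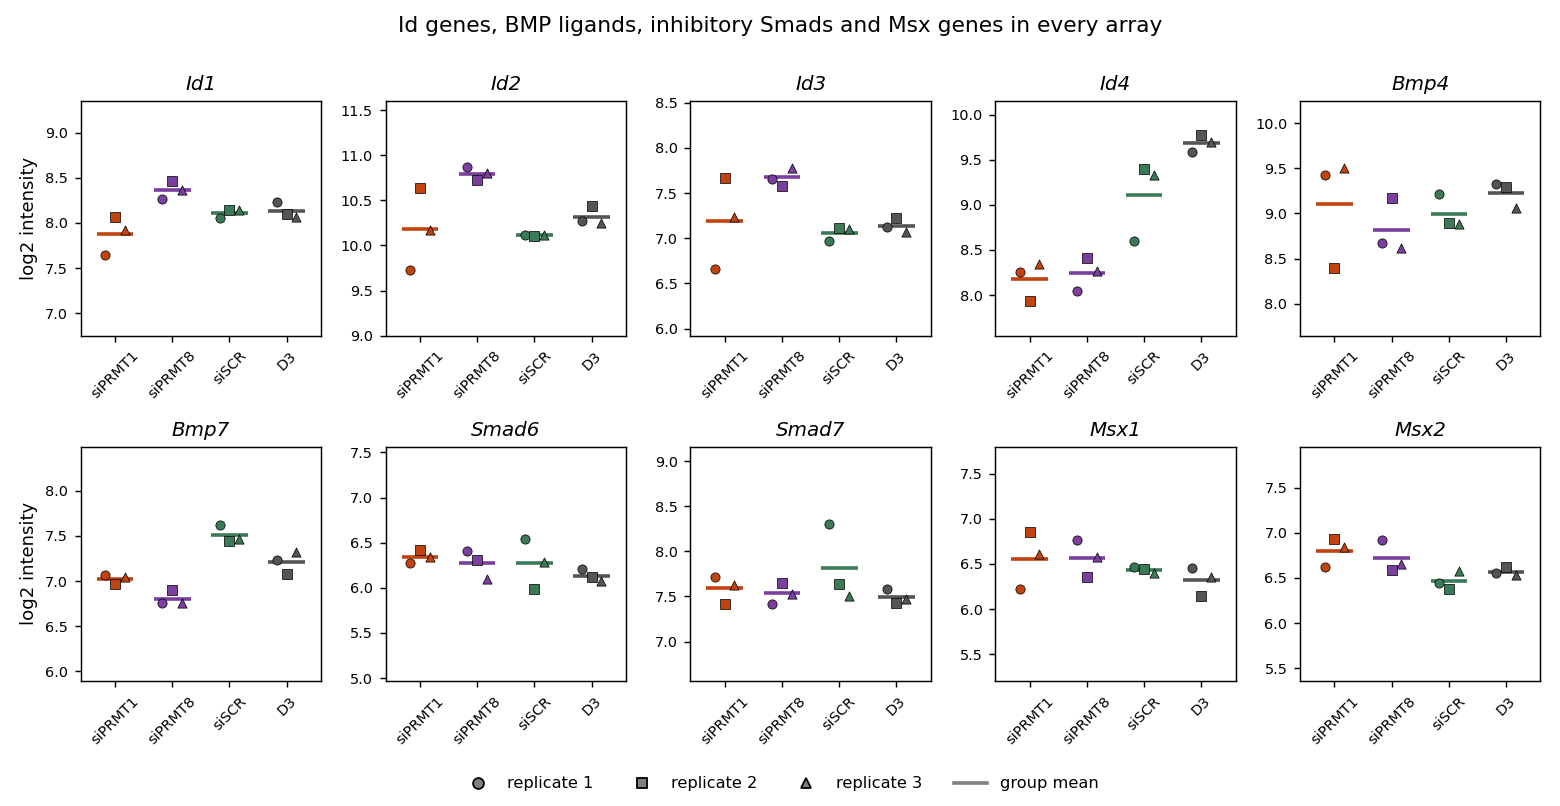
Log2 intensity of each of the 10 genes in every array, in siPRMT1, siPRMT8, siSCR and D3 (3 arrays each); the marker shape gives the replicate and the bar the group mean, and every panel spans the same number of log2 units. Id4 is lowest in the knockdown lines and highest in D3 with siSCR replicate 1 between them, Bmp7 is highest in siSCR, and siPRMT1 replicate 2 lies with the siPRMT8 arrays for Id2 and Id3.

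Of the ligands, Bmp7 fell in both knockdown lines relative to siSCR, and Bmp4 passed no test with all arrays. Bmp7, a ligand made by the roof plate and the meninges among other sources, read 7.07, 6.97 and 7.04 in siPRMT1, 6.76, 6.90 and 6.76 in siPRMT8, 7.62, 7.44 and 7.47 in siSCR and 7.23, 7.08 and 7.32 in D3. The groups did not overlap, with siSCR highest, D3 next, then siPRMT1 and siPRMT8 lowest. Relative to siSCR it fell by 0.48 in siPRMT1 (SE 0.0774, 1.40-fold, adjusted p = 0.00248) and, in siPRMT8, by 0.70 (SE 0.0774, 1.63-fold, adjusted p = 0.000479, limma). The siSCR arrays lay above D3, by 0.30 (adjusted p = 0.210), and the differences from D3 were smaller, -0.18 in siPRMT1 (adjusted p = 0.104) and -0.40 in siPRMT8 (adjusted p = 0.00310). Of 9 mesenchyme markers tested, relative to siSCR, 1 was higher and 4 lower in siPRMT1 and 0 were higher and 5 lower in siPRMT8, and without siSCR replicate 1 the lower ones were 3 in each line. The mean of all 10 mesenchyme markers measured, with Lum, which lay below the filter on dim genes, was 7.57, 7.29 and 7.61 in siPRMT1 and 7.42, 7.66 and 7.50 in siPRMT8. It was 7.95, 7.87 and 7.83 in siSCR and 7.82 to 7.87 in D3. Over the 12 arrays Bmp7 had an r of 0.816 with this mean and of 0.780 with the astrocyte mean, a description over arrays that share their groups. These were its highest values over all the marker lists. The mesenchyme mean was not particular to Bmp7, with an r of 0.815 for Id4 and -0.864 for Msx2. The part of cell composition in the Bmp7 difference was not tested.

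Bmp4, a ligand of the epidermis and roof plate that opposes neural fate in the early embryo, had the widest spread within a group of the 10 genes, in siPRMT1. It read 9.43, 8.39 and 9.50 in siPRMT1, 8.67, 9.17 and 8.62 in siPRMT8, 9.21, 8.89 and 8.88 in siSCR and 9.33, 9.29 and 9.06 in D3. In siPRMT1, replicates 1 and 3 lay above every siSCR array and replicate 2 below every one. The siPRMT1 difference from siSCR was 0.11 (95% interval -0.44 to 0.66, adjusted p = 0.786), and 0.47 without siPRMT1 replicate 2 (adjusted p = 0.0545). With siSCR replicate 1 left out as well it was 0.58 and passed (adjusted p = 0.0123, limma), and without siPRMT1 replicate 3 it was -0.08. The siPRMT8 difference from siSCR was -0.17 (95% interval -0.72 to 0.38, adjusted p = 0.664). Relative to D3 the siPRMT8 difference was -0.40, with an adjusted p of 0.262 and, without siPRMT1 replicate 2, of 0.0457.

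The inhibitory Smads passed no test in any comparison. Smad6, which acts mainly against BMP receptors, read 6.28, 6.42 and 6.34 in siPRMT1, 6.41, 6.31 and 6.10 in siPRMT8, 6.54, 5.99 and 6.29 in siSCR and 6.21, 6.12 and 6.08 in D3. Its difference from siSCR was 0.07 in siPRMT1 (95% interval -0.20 to 0.34) and 0.00024 in siPRMT8 (95% interval -0.27 to 0.27). Smad7, which acts against both BMP and TGF-beta receptors, read 7.72, 7.42 and 7.63 in siPRMT1, 7.42, 7.65 and 7.53 in siPRMT8, 8.30, 7.64 and 7.50 in siSCR and 7.58, 7.43 and 7.47 in D3. Its difference from siSCR was -0.23 in siPRMT1 (95% interval -0.59 to 0.14) and -0.28 in siPRMT8 (95% interval -0.65 to 0.08), and siSCR replicate 1 set its size. Without that array the difference was 0.02 in siPRMT1 and -0.04 in siPRMT8. These intervals leave room for shifts in either direction.

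Msx1 and Msx2, homeobox repressors of the dorsal neural tube and neural crest, lay slightly higher on average in both knockdown lines than in siSCR, and 1 of these 4 differences passed. Msx2 read 6.62, 6.93 and 6.84 in siPRMT1, 6.92, 6.59 and 6.65 in siPRMT8, 6.44, 6.38 and 6.58 in siSCR and 6.55, 6.62 and 6.53 in D3. Each knockdown array lay above each siSCR array, by little. Msx2 was higher in siPRMT1 than in siSCR by 0.33 (SE 0.10, 1.26-fold, adjusted p = 0.0401, limma), and it differed by 0.25 in siPRMT8 (adjusted p = 0.0874). The siPRMT1 call was lost without siPRMT1 replicate 2 or 3 or without any 1 of the siSCR replicates, with an adjusted p of 0.0557 to 0.143, without siPRMT8 replicate 3 or any 1 of the D3 replicates (adjusted p = 0.0524 to 0.0595), and when dim genes were kept (adjusted p = 0.0533). Msx1 read 6.22, 6.85 and 6.61 in siPRMT1, 6.77, 6.35 and 6.58 in siPRMT8, 6.47, 6.44 and 6.40 in siSCR and 6.45, 6.15 and 6.36 in D3, and each knockdown line reached both below and above the siSCR arrays. Its difference from siSCR was 0.12 in siPRMT1 (adjusted p = 0.590) and 0.13 in siPRMT8 (adjusted p = 0.571).

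The siSCR and D3 lines, compared as the control for carrying a construct, differed in none of the 10 genes at an adjusted p under 0.05 (limma), against 0.154% of all tested genes. At an unadjusted p under 0.05, 2 of the 10 differed: Id4 by -0.58 (adjusted p = 0.322) and Bmp7 by 0.30 (adjusted p = 0.210). In 3 of the 10 (Id2, Id4 and Bmp7) the siSCR and D3 arrays did not overlap, beside 20.3% of all tested genes. Over the fits that leave out 1 array in turn, the Id4 difference between siSCR and D3 ran between -0.72 and -0.32, the value of -0.32 being the one without siSCR replicate 1.

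Compared directly, siPRMT1 and siPRMT8 differed in none of the 10 genes at an adjusted p under 0.05 (limma), against 0.154% of all tested genes, and in 4 at an unadjusted p under 0.05. These were Id1 (-0.49, adjusted p = 0.0894), Id2 (-0.61, adjusted p = 0.199), Id3 (-0.49, adjusted p = 0.329) and Bmp7 (0.22, adjusted p = 0.297). The siPRMT1 and siPRMT8 arrays did not overlap in Id1, Id2 and Bmp7, beside 15.8% of all tested genes. The Id4 difference was -0.06, with a 95% interval of -0.47 to 0.34 that leaves room for a difference either way. Without siPRMT1 replicate 2, 4 genes passed: Id1 (-0.58, adjusted p = 0.0111), Id2 (-0.84, adjusted p = 0.00585), Id3 (-0.73, adjusted p = 0.0160) and Bmp4 (0.64, adjusted p = 0.0404). Without siPRMT1 replicate 1 or replicate 3, 0 of the 10 passed. Over all tested genes the count in this comparison was 23 with all arrays and ran from 2 to 862 when 1 array was left out. The 4 genes thus cannot be set against the 0.154% above. That the Id2 and Id3 calls were made in siPRMT8 and not in siPRMT1 is therefore not by itself a tested difference between the lines.

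In Id1, Id2, Id3, Bmp4 and Msx1 the siPRMT1 arrays had the largest SD of the 4 groups. In their replicate 2, Id1, Id2, Id3, Msx1 and Msx2 were the highest of the 3 and Id4, Bmp4 and Bmp7 the lowest, and in replicate 1, Id1, Id2, Id3, Msx1 and Msx2 were the lowest. The mean of the pluripotency markers was 10.85, 9.74 and 10.61 in siPRMT1, 10.17, 10.50 and 10.16 in siPRMT8, 10.75, 10.49 and 10.51 in siSCR and 10.26 to 10.39 in D3, lowest in siPRMT1 replicate 2. The mean of the epithelial markers was 9.74, 8.92 and 9.54 in siPRMT1 and 9.15, 9.33 and 9.23 in siPRMT8, against 9.71, 9.29 and 9.30 in siSCR and 9.49, 9.28 and 9.50 in D3. In siPRMT8 and in siSCR the array with the highest epithelial mean also had the highest Bmp4, in siPRMT1 and D3 it did not, and siPRMT1 replicate 2 had the lowest of both over the 12 arrays. The part of cell composition in the Bmp4, Id2 and Id3 values was not tested.

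**Figure D3:**
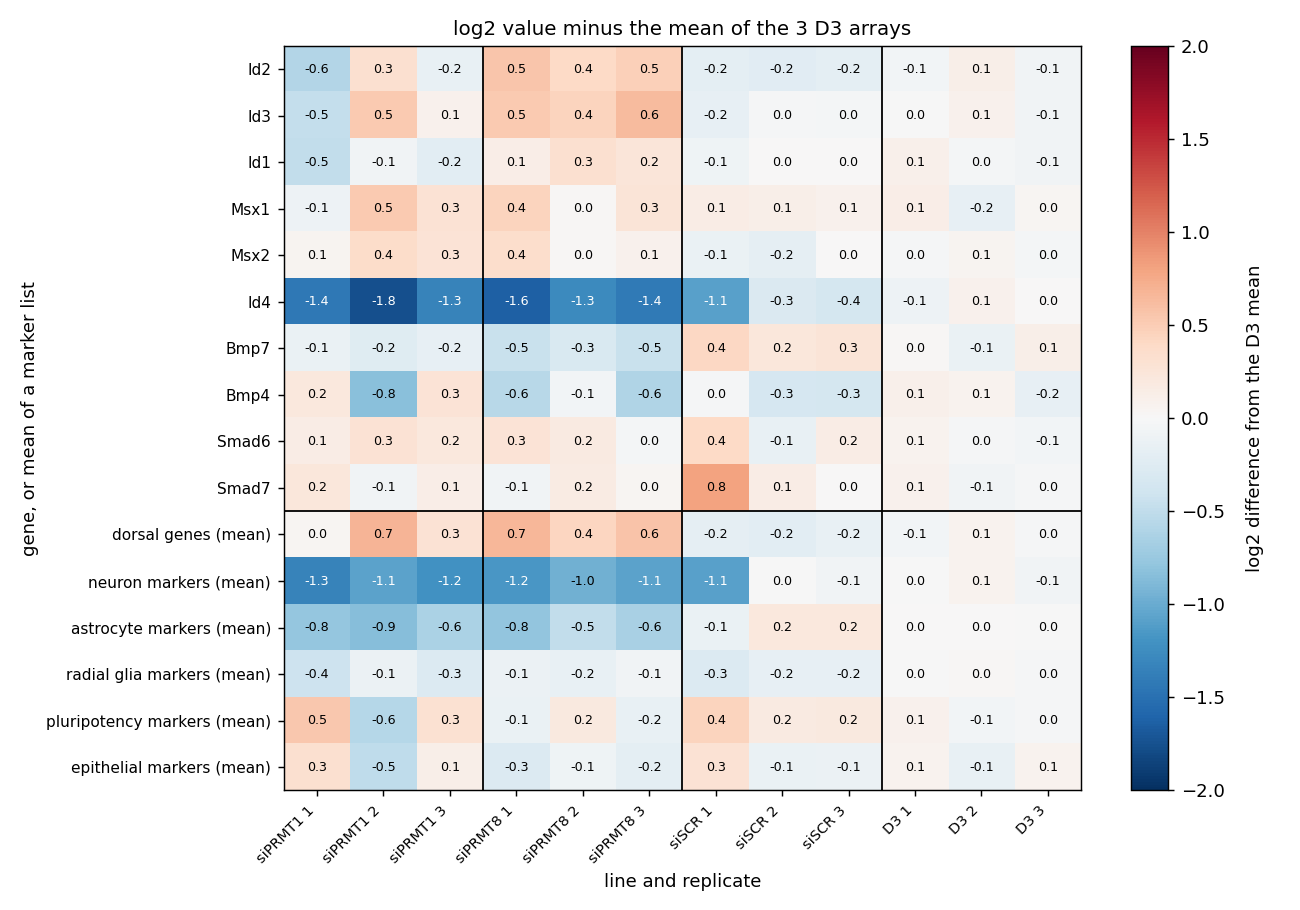
Log2 value in each array minus the mean of the 3 D3 arrays, for the 10 genes (upper block) and for means of marker lists (lower block), with the 4 groups set apart by vertical lines. The siSCR replicate 1 column is low for Id4 and for the neuron markers like the knockdown columns, and the siPRMT1 replicate 2 column is high for Id2, Id3, Msx1 and the dorsal genes and low for Bmp4 and the pluripotency markers.

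Among the other ligands, receptors, Smads and antagonists of the BMP pathway, taken from lists by role, few genes passed. None of 10 other BMP and GDF ligands tested passed in either line relative to siSCR (limma), with 1 at an unadjusted p under 0.05 in each line. Of 12 receptors and co-receptors, 0 were higher and 2 lower in siPRMT1, and 1 was higher and 1 lower in siPRMT8. The type II receptor Bmpr2 fell by 0.38 in siPRMT1 (adjusted p = 0.00445) and, in siPRMT8, by 0.26 (adjusted p = 0.0203). Neo1, a receptor for repulsive guidance molecules, fell by 0.32 in siPRMT1 (adjusted p = 0.0145). The type I receptor Bmpr1a was higher by 0.24 in siPRMT8 (adjusted p = 0.0165) and differed by 0.00030 in siPRMT1, and the type I receptor Bmpr1b differed by 0.05 in siPRMT1 and, in siPRMT8, by 0.34 (adjusted p = 0.0512, and 0.0130 without siPRMT1 replicate 2). Relative to D3, 5 of the 12 were lower in siPRMT1 (Bmpr2, Acvr2a, Rgma, Rgmb and Neo1) and 4 in siPRMT8 (Bmpr2, Acvr1, Acvr2a and Rgmb), and 0 were higher; without siPRMT1 replicate 2, 1 was higher and 6 lower in siPRMT1 and 5 were lower in siPRMT8. Acvr1, Acvr2a, Rgma and Rgmb are named after their values were seen. The receptor counts relative to siSCR moved with single arrays. Without siSCR replicate 1, 2 were higher and 4 lower in siPRMT1 and 2 higher and 2 lower in siPRMT8; without siPRMT1 replicate 2 they were 0 and 3 in siPRMT1 and 2 and 2 in siPRMT8. With both arrays left out, 2 were higher and 5 lower in siPRMT1, and 3 were higher and 4 lower in siPRMT8. The counts over all 14953 tested genes relative to siSCR also moved. With 1 array left out they ran from 1317 to 3763 in siPRMT1 and from 1804 to 4773 in siPRMT8. With both arrays left out the siPRMT8 count was 5710. The list counts with arrays left out thus cannot be set against the 18.7% and 23.8% above. Of the ligands, Bmp2 fell in both lines without siSCR replicate 1, and Gdf10 rose in siPRMT8 without siPRMT1 replicate 2; both are named after their values were seen.

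Of 10 Smads and cofactors, 0 passed in siPRMT1 and 1 passed in siPRMT8, where Smad1 fell by 0.26 (adjusted p = 0.0150, limma). Smad1 differed by -0.19 in siPRMT1 (adjusted p = 0.0665), and by -0.24 without siSCR replicate 1, where it passed (adjusted p = 0.0141). The differences of Smad5, Smad4 and Smad9 from siSCR lay between -0.13 and 0.02 in siPRMT1 and between -0.06 and 0.04 in siPRMT8. Among 12 antagonists tested, 0 were higher and 1 lower in siPRMT1, and 1 was higher and 1 lower in siPRMT8. Vwc2, a secreted BMP antagonist of the brain, fell by 0.58 in siPRMT1 (adjusted p = 0.00287) and, in siPRMT8, by 0.52 (adjusted p = 0.00376), and Fst, which binds activin and some BMPs, rose by 0.85 in siPRMT8 (adjusted p = 0.0208). Without siSCR replicate 1, 1 of the Smads and cofactors was lower in each line, and 2 of the antagonists were lower in each line. Without siPRMT1 replicate 2, 0 of the Smads and cofactors were higher and 1 lower in siPRMT1 and 2 higher and 2 lower in siPRMT8, and of the antagonists 1 was higher and 1 lower in siPRMT1 and 2 were higher and 2 lower in siPRMT8. With both arrays left out, 3 Smads and cofactors and 3 antagonists were lower in siPRMT1, and 2 of each list in siPRMT8. Relative to D3, 1 antagonist was higher and 1 lower in siPRMT1. In siPRMT8, 0 antagonists were higher and 1 lower relative to D3, so Fst did not pass there.

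A list of 17 other BMP-responsive genes also held the BMP cofactor gene Zcchc12, and Dlx5 and Runx2 of this list were not tested. Of the 15 tested, 0 were higher and 2 lower in siPRMT1 relative to siSCR, and 1 was higher and 3 lower in siPRMT8. The BMP cofactor gene Zcchc12 was at 5.90, 5.76 and 6.14 in siPRMT1 and 5.93, 6.30 and 6.22 in siPRMT8, against 6.65, 7.33 and 7.38 in siSCR. The difference from siSCR was -1.19 in siPRMT1 (adjusted p = 0.00174) and -0.97 in siPRMT8 (adjusted p = 0.00336, limma), and siSCR replicate 1 was again the siSCR array nearest to the knockdown lines. The transcription factor gene Gata3 fell by 0.39 in siPRMT1 (adjusted p = 0.0344) and, in siPRMT8, by 0.46 (adjusted p = 0.0148), and Tbx3 fell by 0.41 in siPRMT8 (adjusted p = 0.0180). Msx3, a homeobox gene of the dorsal neural tube and a relative of Msx1 and Msx2, was at 6.19, 7.40 and 6.48 in siPRMT1 and 7.60, 7.19 and 7.41 in siPRMT8, against 6.16, 6.18 and 6.51 in siSCR. It rose by 1.12 in siPRMT8 (adjusted p = 0.00733), and its siPRMT1 value was high in replicate 2 alone. Without siPRMT1 replicate 2, 1 of the 15 (Hand1, a mesodermal transcription factor) was higher in siPRMT1 and 2 were lower. Without siSCR replicate 1 the siPRMT1 difference of Gata3 was -0.38 and did not pass (adjusted p = 0.0530).

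Relative to siSCR, the partners of Id proteins changed in both directions, with 1 of 10 higher and 4 lower in siPRMT1. In siPRMT8, 2 were higher and 3 lower. Of the E proteins, which Id proteins bind directly, Tcf3 rose by 0.38 in siPRMT1 (adjusted p = 0.0289) and, in siPRMT8, by 0.33 (adjusted p = 0.0452). Tcf12 rose by 0.59 in siPRMT8 (adjusted p = 0.0139) and differed by 0.26 in siPRMT1 (adjusted p = 0.243). Tcf4 fell by 0.30 in siPRMT1 (adjusted p = 0.0447) and differed by -0.10 in siPRMT8 (adjusted p = 0.475). Olig1 and Olig2, basic helix-loop-helix factors of the oligodendrocyte and motor neuron lines, fell by 0.92 and 0.82 in siPRMT1 and, in siPRMT8, by 0.96 and 0.90 (adjusted p = 0.00386 to 0.00796, limma). The Notch target Hes1 fell by 0.31 in siPRMT1 (adjusted p = 0.0185), and the proneural gene Neurod1 fell by 0.35 in siPRMT8 (adjusted p = 0.0384). Without siPRMT1 replicate 2, 0 of the partners were higher in siPRMT1, so that Tcf3 no longer passed there, and 4 were lower. Without siSCR replicate 1 the siPRMT8 difference of Neurod1 was -0.30 and did not pass (adjusted p = 0.0897), and with both arrays left out the siPRMT1 difference of Hes1 was -0.19 (adjusted p = 0.0642). Relative to D3, 1 of the 10 partners was higher and 1 lower in siPRMT1, and 1 was higher and 2 lower in siPRMT8. Olig2 did not pass in siPRMT1 relative to D3. Between siSCR and D3, 4 of the 10 had an unadjusted p under 0.05 (limma). Arrays of these 2 lines did not overlap in 4 of the 10, beside 20.3% of all tested genes.

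Genes of the dorsal neural tube, where BMP signals act in the embryo, passed in 1 direction. Of 8 tested, 5 were higher and 0 lower in siPRMT1 than in siSCR (Pax3, Wnt1, Rspo3, Pax7 and Rspo1), and 7 were higher and 0 lower in siPRMT8. The median difference was 0.42 in siPRMT1 and 0.55 in siPRMT8, beside 0.036 and 0.012 over all tested genes. Pax3, a dorsal progenitor factor, was at 7.24, 8.57 and 7.78 in siPRMT1 and 8.54, 8.32 and 8.60 in siPRMT8, against 6.71, 6.85 and 6.74 in siSCR, a difference of 1.10 in siPRMT1 (adjusted p = 0.0125) and 1.72 in siPRMT8 (adjusted p = 0.00139). In D3 it was at 7.61, 7.96 and 7.48, above the siSCR arrays, and the siPRMT1 difference from D3 was 0.18 (adjusted p = 0.619) and that of siPRMT8 0.80 (adjusted p = 0.0356). Wnt1, a roof plate signal, was higher by 0.97 in siPRMT1 (adjusted p = 0.00443) and, in siPRMT8, by 1.22 (adjusted p = 0.00135), and Rspo3, which amplifies Wnt signals, by 0.71 in siPRMT1 (adjusted p = 0.0311) and, in siPRMT8, by 1.01 (adjusted p = 0.00547). Relative to D3, 4 of the 8 were higher in siPRMT1 (Wnt1, Wnt3a, Zic2 and Rspo1) and 6 in siPRMT8, and 0 were lower in either. These counts became 3 higher and 1 lower in siPRMT1 and 7 higher in siPRMT8 without siPRMT1 replicate 2. Without siPRMT1 replicate 2 the siPRMT1 count relative to siSCR was 3 higher (Pax3, Pax7 and Wnt1) and 0 lower, and with siSCR replicate 1 also left out it was 4 higher and 1 lower (Zic1), while the siPRMT8 count was then 7 higher and 0 lower. Rspo3 in siPRMT1 did not pass without siSCR replicate 1 either (0.70, adjusted p = 0.0512). The mean of these 8 genes was 7.08, 7.72 and 7.33 in siPRMT1, 7.69, 7.47 and 7.60 in siPRMT8, 6.86, 6.83 and 6.88 in siSCR and 6.98 to 7.11 in D3, and siPRMT1 replicate 1, the array with the lowest Id1, Id2 and Id3, was the lowest of the knockdown arrays. In all of these lists of other pathway genes, 0 members passed between siSCR and D3 (limma), with between 0 and 4 of a list at an unadjusted p under 0.05. Of the 8 dorsal genes it was 4, and siSCR and D3 arrays did not overlap in 5, beside 20.3% of all tested genes. Their median difference of siSCR from D3 was -0.22, beside 0.0080 over all tested genes. Relative to D3 their median difference was 0.38 in siPRMT1 and 0.56 in siPRMT8, beside 0.051 and 0.028 over all tested genes.

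**Figure D4:**
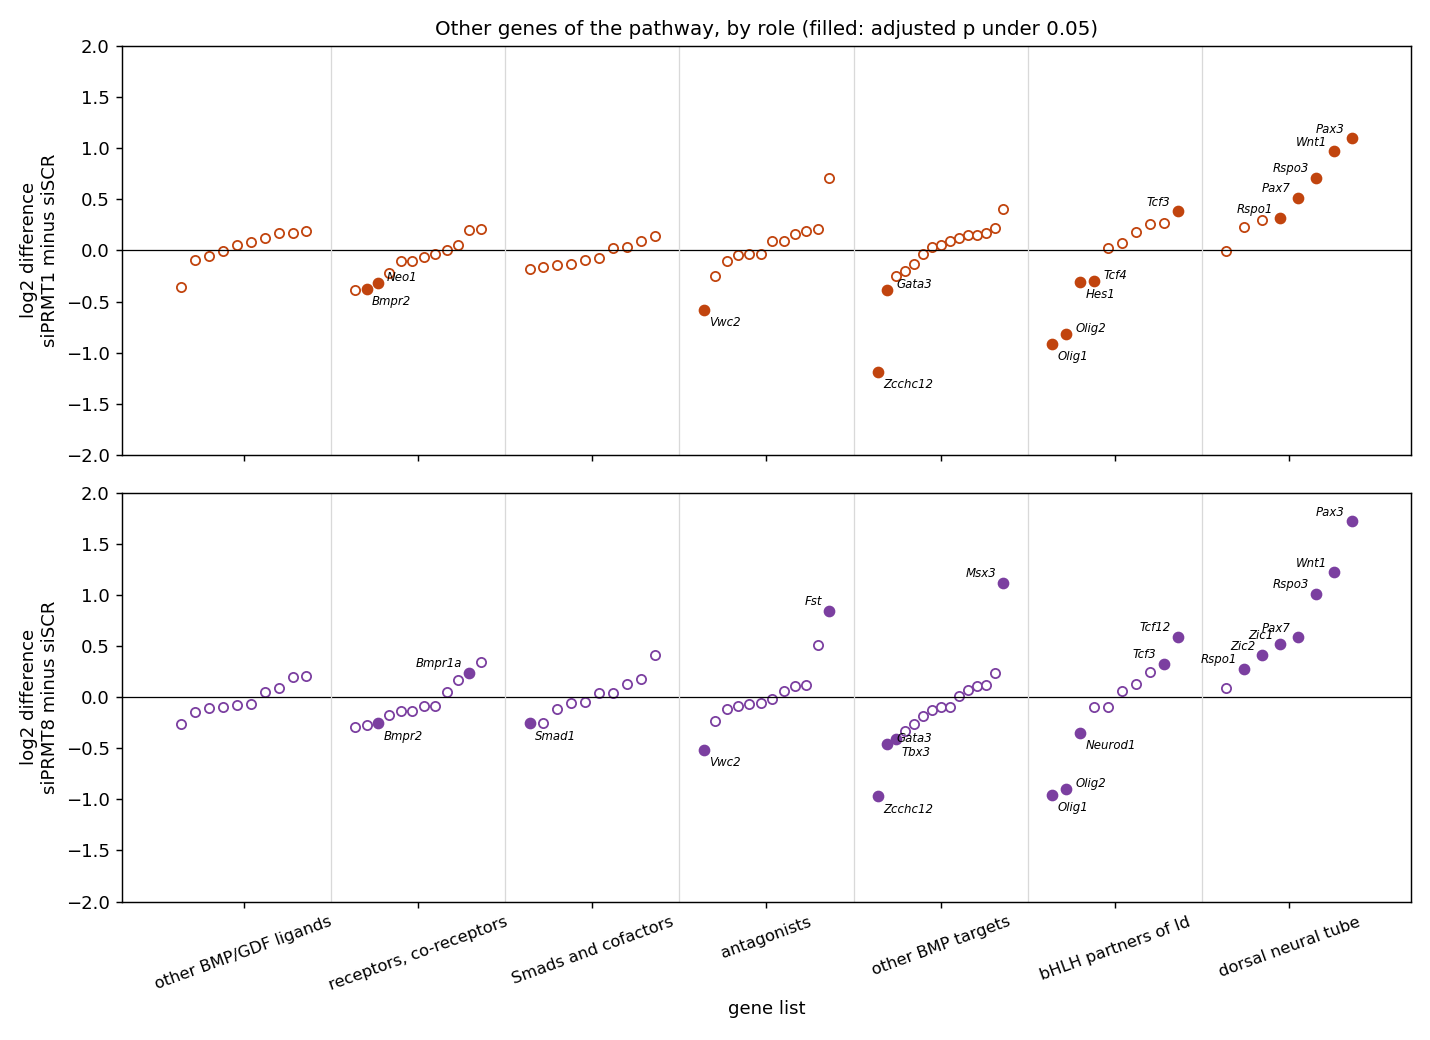
Difference in log2 intensity between siPRMT1 (upper panel) or siPRMT8 (lower panel) and siSCR for each tested gene of 7 lists of pathway genes, sorted within a list; filled and named points have an adjusted p under 0.05 (limma). Most ligands, receptors, Smads and antagonists lie within 0.5 of 0, while dorsal neural tube genes lie to the positive side.

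The genes whose level followed each of the 10 most closely over the 12 arrays were sought among the other tested genes with Pearson's r. Such an r is a description over 12 arrays in 4 groups, and the arrays of a group share their line. Id2 was most like Cyb5b (r = 0.971) and Id3 (r = 0.960), and Id3 was most like Ift22 (r = 0.963) and Id2. Id4 was most like Rcan2 (r = 0.993) and Lin7a (r = 0.992), while Id1 had lower values, with Erbin (r = 0.929) and Cdh11 (r = 0.904). Bmp7 was most like Parm1 (r = 0.989) and Dlg5 (r = 0.962), and Bmp4 was most like Slc17a9 (r = 0.945) and Smyd3 (r = 0.936). Smad7 was most like Laptm4a (r = 0.942) and Clic6 (r = 0.919), and Smad6 was most like Rab19 (r = 0.910) and Mdfi (r = 0.906). Msx1 was most like Kcnk13 (r = 0.954) and Cda (r = 0.922), and Msx2 was most like Adamts19 (r = 0.926) and Aqp2 (r = 0.925). Of the 10 genes, Id2 and Id3 were the only pair in which each was among the 2 nearest of the other.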

How the data were processed

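The authors deposited processed log2 intensities of 35556 probe sets on 12 arrays. That they are log2 was inferred from their range of 0.97 to 13.54, and the authors' correction and normalisation are not stated in the labels or the table. The medians of the arrays lay within 0.023 of each other, so the values were used as deposited. No scanner files or hybridisation batches were used here, so the number of arrays limits the precision.

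Names came from the platform annotation, updated by gene ID through a RefSeq gene table (assembly GRCm38.p6): 21789 had 1 symbol, 1621 several and 12146 none, and 21698 were matched. Where a symbol had several probe sets, the one of highest mean was kept (19938 genes). Genes in the lowest 25% by mean, below 5.43, were left out, which left 14953. No probe set coordinates are printed because the array annotation names no build. The coordinates of the promoter windows are those of GRCm38.p6.

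The tests were those of limma 3.58.1 (lmFit, eBayes; R 4.3.3), with the 4 groups as means in 1 model (8 residual degrees of freedom) and Benjamini-Hochberg adjustment over all tested genes, threshold 0.05, in 6 comparisons. SE is the moderated standard error and intervals are 95% confidence intervals. The script was tested on simulated data. Same-numbered siSCR and D3 arrays, by the replicate numbers in the labels, deviated together in 3 of 3 pairs (r = 0.107 to 0.194 over genes). However, siSCR replicate 3 and D3 replicate 2 also had an r of 0.107. These values do not establish pairing, and the main fit had no replicate block. The fit with the replicate block left 0 of the 10 genes changed between siSCR and D3, as without it. Alternatives were other normalisation, filters, probe set rules, variance models, weights, leaving out arrays, the replicate block, a fold minimum and a pooled control.

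The 10 genes, the pathway and marker lists and the tests were chosen with earlier results of these data known. All 10 genes are named in each comparison. From each pathway list, up to 3 higher and 3 lower genes with the largest passing change relative to siSCR are named, with Tcf3, Tcf4, Tcf12, Bmpr1a, Bmpr1b, Bmpr2, Smad1, Smad4, Smad5 and Smad9 always named. The genes most like a member are the 2 with the highest r, without predicted genes and small RNAs.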

Additional observations from a re-analysis of the deposited data

How the results depend on the processing

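There were 3 arrays a group, and no signal over background to set beside these values. The calls or signs of differences in Id1, Id3, Msx1 and Msx2 depended on single arrays. The number of the 10 genes that passed in siPRMT1 relative to siSCR, 3 as reported, was 1 with only the 2 groups in the fit (Bmp7), 5 with array weights, 1 with a minimum of 1.5-fold (Id4) and 2 to 4 when 1 array was left out. The siPRMT8 count relative to siSCR, 4 as reported, was 3 without any 1 siPRMT8 or siSCR array, with Id3 lost each time, 4 without a D3 array or siPRMT1 replicate 3, and 5 without siPRMT1 replicate 1 or 2, with Id1 gained. Leaving out arrays of groups outside a comparison was added after seeing the data. The siPRMT1 count relative to D3, 1 as reported, was 4 with array weights, 3 with siPRMT1 replicate 2 and siSCR replicate 1 removed together (Id1, Id2 and Id4) and 1 to 3 with 1 array left out. The siPRMT8 count relative to D3, 2 as reported, was 4 with the dimmer genes up to the median left out, 6 with only the 2 groups in the fit, 5 with array weights, 1 with a minimum of 1.5-fold and 2 to 6 with 1 array left out. Between siPRMT1 and siPRMT8 the count of 0 was 3 with array weights, 4 with both arrays left out and 0 to 4 with 1 array left out. Between siSCR and D3 it was 0 in every alternative run. Smad6, Msx1 and Msx2 were not tested where the dimmer genes were left out. The counts of the pathway and marker lists without siSCR replicate 1, siPRMT1 replicate 2 or both were added after seeing the data. The array-weight fit stopped before it had fully converged. Apart from the fold minimum, where fewer genes can pass, and the fits with fewer arrays, the cause was not tested. Over all tested genes, the count in siPRMT1 relative to siSCR was 2801, with 357 to 5528 over the alternatives, and in siPRMT8 3565, with 1804 to 5710. Relative to D3 it was 3952 in siPRMT1 (2643 to 6592) and 4135 in siPRMT8 (2736 to 6581). Between siPRMT1 and siPRMT8 it was 23 (2 to 1901), and between siSCR and D3 it was 23 (2 to 279).

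The replicate block gave 2 and 4 of the 10 genes for siPRMT1 and siPRMT8 relative to siSCR (Msx2 lost in siPRMT1, adjusted p = 0.0688), 1 and 3 relative to D3 (Id3 gained in siPRMT8) and 0 between siPRMT1 and siPRMT8; it changed no other call. In these comparisons too the numbers do not establish pairing. Same-numbered arrays correlated at -0.105 to 0.207 (siPRMT1) and -0.141 to 0.194 (siPRMT8) relative to siSCR. Relative to D3 the r was -0.0353 to 0.29 and -0.254 to -0.0812, and between the knockdown lines it was -0.564 to 0.0417.

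Of the differences that turned sign, none had passed its test. For siPRMT1 relative to siSCR these were Smad7 with array weights (0.0062), Id2 (-0.16), Id3 (-0.16), Smad7 (0.10) and Msx1 (-0.0060) with both arrays left out, and Id2 (-0.037) and Bmp4 (-0.0038) with the mean of siSCR and D3 as control. For siPRMT8 relative to siSCR, Smad6 was -0.016 after quantile normalisation and -0.0042 after median centring. For siPRMT1 relative to D3, Bmp4 was 0.20 with array weights and 0.24 with both arrays left out, where Id3 was -0.20. Id1 between siSCR and D3 was 0.0033 with both arrays left out. Between siPRMT1 and siPRMT8, Msx1 was 0.0061 after quantile normalisation and Id4 was 0.049 with array weights and 0.060 with both arrays left out. When 1 array was left out in turn, the ranges of the differences that turned were, for siPRMT1 relative to siSCR, Bmp4 -0.084 to 0.47, Id2 -0.16 to 0.29, Id3 -0.12 to 0.39, Msx1 -0.023 to 0.29, Smad6 -0.075 to 0.20, Smad7 -0.38 to 0.017; for siPRMT8 relative to siSCR, Smad6 -0.14 to 0.13; for siPRMT1 relative to D3, Bmp4 -0.31 to 0.24, Id2 -0.37 to 0.086, Id3 -0.20 to 0.31; for siPRMT8 relative to D3, Smad7 -0.023 to 0.095; for siSCR relative to D3, Id1 -0.058 to 0.021; for siPRMT1 relative to siPRMT8, Id4 -0.16 to 0.060, Msx1 -0.15 to 0.16, Smad6 -0.017 to 0.14, Smad7 -0.010 to 0.14.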
